A study of Mus musculus with 6 samples.

Results

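The genes described here are 38 members of the tumour necrosis factor (TNF) superfamily and its death-signalling machinery, taken by gene symbol out of the 55416 genes of a count table from UVB-irradiated mouse keratinocytes. They comprise 8 ligands, 5 receptors with a death domain, 3 decoy receptors, 6 other signalling receptors, 4 adaptors and regulators of the death complex, 6 TRAF and cIAP adaptors, 3 necroptosis genes and 3 ubiquitin brakes. In the table, 37 of the 38 had at least 1 count, and the same 37 passed the filter on low counts. The remaining gene, Tnfsf14, which encodes the ligand LIGHT, had 0 counts in every library.

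RNA was sequenced from primary keratinocytes, the cells that form the epidermis, isolated from the skin of newborn mice aged 1 to 2 days on a C57BL/6J:129 hybrid background. The KO group consisted of 3 libraries (numbered 4, 5 and 6) from C/EBPβ knockout mice, which lack the transcription factor encoded by Cebpb. The WT group consisted of 3 libraries (numbered 1, 2 and 3) from wild type mice. Both groups were grown in medium with 0.05 mM calcium and human EGF, were irradiated with UVB (312 nm lamp) at 10 mJ/cm2 and harvested 8 h afterwards. Every library was irradiated, so the comparison is of genotypes after UVB and holds no measure of the UVB response itself. The labels do not state whether libraries of a genotype came from separate mice or cultures, so the spread between them may be technical.

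TNF family ligands are mostly membrane proteins that form trimers and cluster their receptors on target cells. Receptors with a death domain recruit the adaptors TRADD or FADD, and FADD recruits caspase-8, which starts apoptosis unless it is restrained by cFLIP, the product of Cflar. The other receptors recruit TRAF adaptors directly, and these bring in the ubiquitin ligases cIAP1 and cIAP2, which lead to NF-kB activation and survival signals. When caspase-8 is blocked, RIPK1, RIPK3 and MLKL can carry out necroptosis, a lytic form of death. CYLD and A20, the product of Tnfaip3, remove or edit the ubiquitin chains on these complexes. In skin, keratinocytes both release TNF after UVB and respond to it.

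Total counts were between 81256192 and 92987497 in the KO libraries and between 107757415 and 122797031 in the WT libraries. By these totals 3 counts correspond to at most 0.0369 CPM, the counts of a gene scaled to a common library size. The deleted gene Cebpb had 78, 109 and 78 counts in the KO libraries and 18184, 17628 and 12036 counts in the WT libraries. Keratinocyte markers dominated in both groups, with 8 markers summing to between 22644 and 23738 CPM in KO and between 38938 and 43910 CPM in WT libraries, and 7 of the 8 were lower in KO cells. Melanocyte markers summed to between 419 and 477 CPM in KO and between 474 and 531 CPM in WT libraries, and 4 of 6 were lower in KO cells. In the edgeR test described below, 23.7% of all genes tested were lower. The 4 Y-linked genes measured summed to 0.129 ± 0.0284 CPM in KO and 64.4 ± 3.71 CPM in WT libraries (SD, n = 3 each), so the sex make-up of the cultures differs with genotype. Its part in the results cannot be told apart from that of genotype. Leaving out the X and Y chromosomes removes only their genes and does not test it.

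In the quasi-likelihood test of edgeR, with Benjamini-Hochberg adjusted p under 0.05 over 17659 genes, 27 of the 37 tested members differed between KO and WT keratinocytes, with 22 higher, 5 lower and 10 not called in KO cells. Over all genes tested, 48.6% were called, 24.8% as higher and 23.7% as lower, whereas 59.5% of the tested members were higher and 13.5% lower. Of the better expressed genes, with a mean of 1 CPM or more, 24 of 30 members were called, against 60.5% of all such genes. Among those 30 members 19 were higher and 5 lower, against 31.3% higher and 29.2% lower over all such genes. The 19 include Cd40 and Tnfrsf1b, which were under 1 CPM in every WT library and reached that mean through the KO libraries. The log2 fold change (KO over WT) had a median of 0.35 in the members and 0.01 over all genes tested. A called rise of at least 1 log2 unit was found in 11 members and in 8.56% of all genes, and a called fall of that size in 1 member and in 5.94% of all genes. The KO and WT libraries did not overlap in 28 members, of which 23 had KO above WT and 5 had KO below. Over all genes, 56.4% did not overlap, 28.7% with KO above and 27.6% with KO below. The 22 higher members, the 11 large rises and the 23 members with KO above WT include Ltb and Traf1. Both of these scarce genes passed the filter on low counts through the KO libraries alone. The 23 also include Tnfsf12, which was not called and had 14 counts in both KO library 6 and WT library 1. Together the members took 0.194% to 0.196% of the counts in KO libraries and 0.141% to 0.149% in WT libraries. With libraries scaled by their totals in place of TMM, which raises the median of all genes by 0.20, 25 members were higher and 2 lower, while 36.7% of all genes were higher and 13.9% lower.

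**Figure D1:**
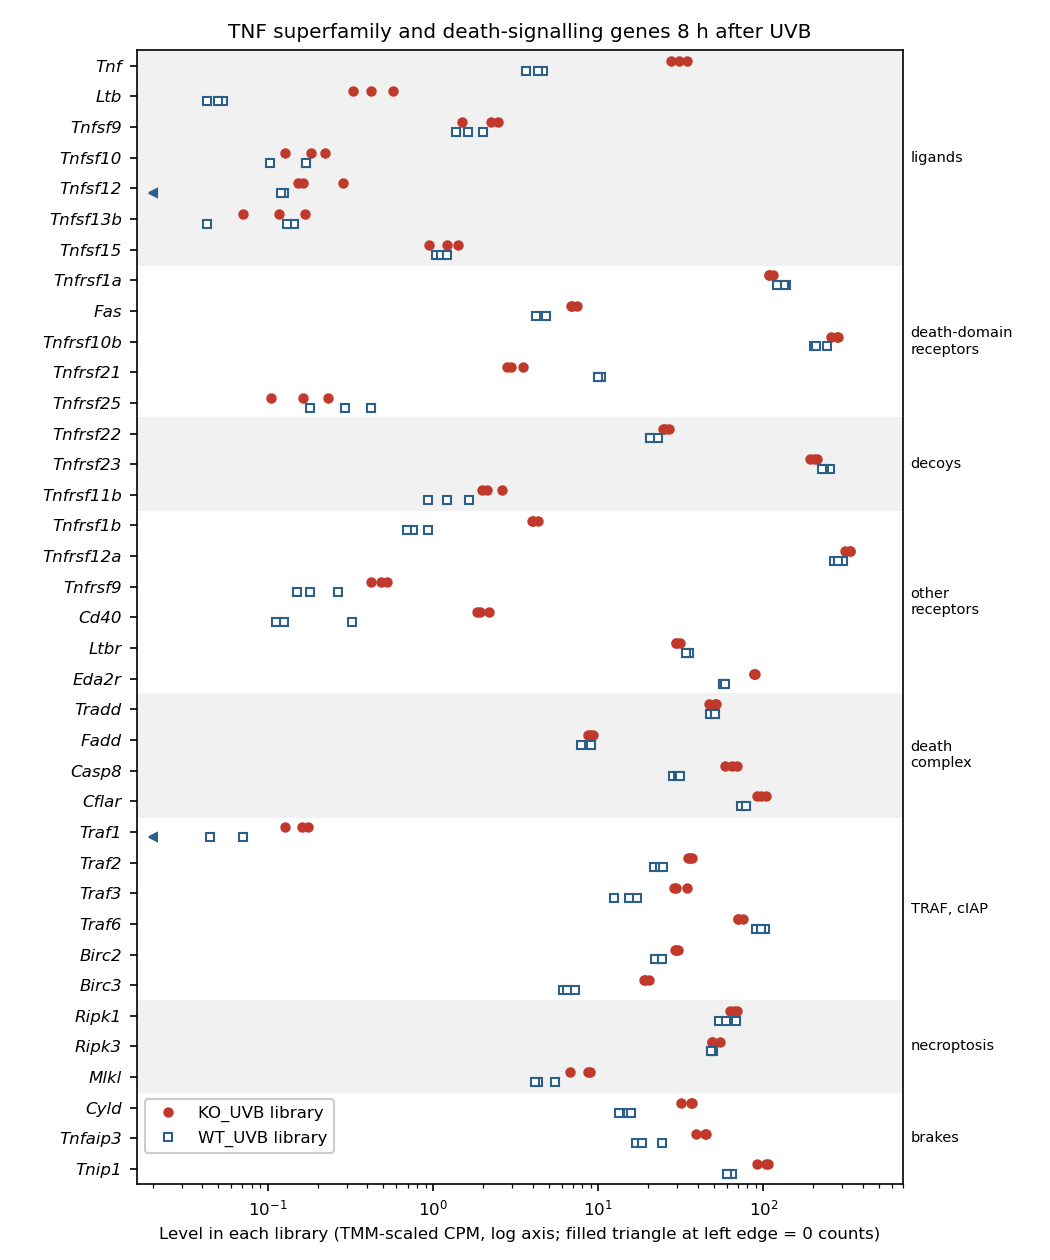
Level of each tested member in each of the 6 libraries, as TMM-scaled CPM on a log axis, grouped by role, with KO libraries (filled circles) above WT libraries (open squares, or a filled triangle at the left edge for 0 counts). Tnf, Ltb, Tnfrsf1b and Cd40 show the widest gaps between the groups, and Tnfrsf21 is the member whose KO libraries sit farthest below its WT libraries.

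Of the ligands, Tnf and Ltb rose in KO keratinocytes, 5 were not called and Tnfsf14 was not detected. The 2 rises among 7 tested ligands (28.6%) were near the 24.8% of all genes tested that rose. Tnf (ENSMUSG00000024401), the founding cytokine of the family, had 27.4, 30.7 and 34.5 CPM in KO libraries and 4.63, 3.64 and 4.30 CPM in WT libraries. All KO libraries were far above the WT libraries, with no overlap. The log2 fold change was 2.88 ± 0.12 (SE; edgeR adjusted p = 1.49e-11). Ltb, which encodes lymphotoxin beta, a membrane ligand of the lymphotoxin beta receptor, was scarce, with 40, 57 and 28 counts in KO and 6, 5 and 5 counts in WT libraries. Its groups did not overlap, and its log2 fold change was 3.14 ± 0.52 (SE; edgeR adjusted p = 9.58e-05). Since no WT library of Ltb reached 10 counts, it passed the filter on low counts through the KO libraries alone. The other pathway ligand next to Tnf in the genome, Lta, had 1, 5 and 10 counts in KO and 6, 1 and 3 counts in WT libraries and was not tested.

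The promoters of these neighbouring ligand genes are shown because both rose. The sequences of all promoters given here are from RefSeq (build GRCm38.p6) and run from 250 bases before to 50 bases after an annotated start. Capitals mark matches, on either strand, to 3 patterns, namely GGG and CC with any 5 bases between them for NF-kB, TTGCNNAA for C/EBP factors, and GAAA repeated after any 2 bases for interferon-response elements. In Tnf (chr17:35201958-35202257, minus strand) and Ltb (chr17:35194257-35194556, plus strand) every capital belongs to the NF-kB pattern.
Tnf: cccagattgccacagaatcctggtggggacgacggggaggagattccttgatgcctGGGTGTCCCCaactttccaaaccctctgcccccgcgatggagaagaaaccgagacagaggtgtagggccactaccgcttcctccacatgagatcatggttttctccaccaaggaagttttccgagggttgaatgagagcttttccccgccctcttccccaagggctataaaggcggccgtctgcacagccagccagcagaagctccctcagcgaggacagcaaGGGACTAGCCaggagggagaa
Ltb: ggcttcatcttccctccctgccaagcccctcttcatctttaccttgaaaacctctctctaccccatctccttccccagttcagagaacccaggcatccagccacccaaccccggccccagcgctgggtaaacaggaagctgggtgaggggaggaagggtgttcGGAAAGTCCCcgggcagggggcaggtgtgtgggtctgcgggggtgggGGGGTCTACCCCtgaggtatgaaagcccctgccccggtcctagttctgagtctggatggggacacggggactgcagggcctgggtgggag

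The NF-kB pattern starts 194 bases before the Tnf start, reading GGGTGTCCCC, and 30 bases after it. The Ltb promoter holds 4 matches, 3 of which overlap in 1 run. This pattern is loose and also fits GC-rich runs, so it stood in 53.5% of the 27025 genes with a promoter in the table. Of the 31 members with a promoter there, 22 held it, among them 14 of 18 higher, 4 of 5 lower and 3 of 7 uncalled members. The C/EBP pattern stood in 5 of the 31 members and 12.2% of all genes, and the interferon-response pattern in 4 of the 31 and 3.99% of all genes. These are matches of letters and not measured binding.

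The remaining ligands were at low levels in both groups. Tnfsf9, the ligand of the receptor 4-1BB, averaged 2.07 ± 0.503 CPM in KO and 1.67 ± 0.320 CPM in WT libraries (SD, n = 3 each), and Tnfsf15, the ligand of DR3, averaged 1.19 ± 0.236 CPM in KO and 1.12 ± 0.0872 CPM in WT libraries. Neither was called, with edgeR adjusted p = 0.271 and 0.797. Tnfsf10, which encodes TRAIL, the ligand of the death receptor DR5, had 12, 18 and 19 counts in KO and 19, 12 and 17 counts in WT libraries. The groups overlapped (edgeR adjusted p = 0.734). Tnfsf13b, which encodes the B cell factor BAFF, had 16, 7 and 10 counts in KO and 16, 5 and 13 counts in WT libraries. Tnfsf12, which encodes TWEAK, had 27, 15 and 14 counts in KO and 14, 0 and 12 counts in WT libraries, and it was not called (edgeR adjusted p = 0.19). In the GENCODE M21 annotation 48.3% of the Tnfsf12 exon length is shared with a joined Tnfsf12 and Tnfsf13 transcript on the same strand, so its reads may have been divided or set aside in counting. Per kilobase of exon, Tnf made up 88.6% of the summed ligand level in KO cells and 59.2% in WT cells.

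Receptors with a death domain moved in both directions, with 2 of 5 higher, 2 lower and 1 not called in KO keratinocytes. Calls over all genes tested were split as well, with 24.8% higher and 23.7% lower. Tnfrsf21 encodes DR6, and its transcript fell furthest of all members. It had 3.52, 2.80 and 2.94 CPM in KO libraries and 9.95, 10.3 and 9.99 CPM in WT libraries. The WT libraries lay close together, and all KO libraries were far below them. The log2 fold change was -1.71 ± 0.13 (SE; edgeR adjusted p = 1.8e-08). Its promoter (chr17:43016305-43016604, plus strand) is shown because it is the deepest fall among the members, and it holds none of the 3 patterns.
Tnfrsf21: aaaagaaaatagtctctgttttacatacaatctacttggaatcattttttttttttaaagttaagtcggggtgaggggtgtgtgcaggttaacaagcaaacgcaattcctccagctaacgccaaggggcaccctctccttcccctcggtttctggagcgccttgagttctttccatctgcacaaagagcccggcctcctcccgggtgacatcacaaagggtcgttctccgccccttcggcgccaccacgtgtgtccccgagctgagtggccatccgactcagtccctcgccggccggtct

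Tnfrsf1a, the TNF receptor that carries the death domain, had 108, 115 and 108 CPM in KO and 137, 134 and 121 CPM in WT libraries. The groups did not overlap, and it fell by 0.24 log2 units (± 0.06, SE; edgeR adjusted p = 0.00449). This call was lost with library totals, where the value was -0.04 (edgeR adjusted p = 0.621). Fas, the receptor of FAS ligand, rose to 7.06 ± 0.294 CPM in KO cells, against 4.57 ± 0.321 CPM in WT cells, a log2 fold change of 0.63 ± 0.12. Tnfrsf10b, which encodes the TRAIL receptor DR5, had 257, 282 and 278 CPM in KO and 243, 202 and 208 CPM in WT libraries. It rose by 0.32 ± 0.07 log2 units (SE; edgeR adjusted p = 0.00107), although WT library 1 came close to KO library 4. Tnfrsf25, which encodes DR3, was near the limit of detection at 10, 23 and 14 counts in KO and 47, 34 and 18 counts in WT libraries and was not called (edgeR adjusted p = 0.184). Fasl, the ligand of Fas, had at most 4 counts in any library.

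The decoy receptors differed among themselves as well, with 2 of 3 higher and 1 lower in KO keratinocytes. Over all genes tested, 24.8% were higher and 23.7% lower. Tnfrsf11b encodes osteoprotegerin, a secreted receptor that captures RANKL and TRAIL. It had 2.13, 1.98 and 2.61 CPM in KO and 1.22, 0.929 and 1.65 CPM in WT libraries, a rise of 0.82 ± 0.22 log2 units (SE; edgeR adjusted p = 0.00607). Tnfrsf22 and Tnfrsf23 encode mouse decoy receptors of TRAIL and lie next to each other in the genome. Tnfrsf22 rose to 25.6 ± 1.09 CPM in KO cells, against 21.4 ± 1.33 CPM in WT cells (edgeR adjusted p = 0.0178), and Tnfrsf23 fell to 202 ± 9.79 CPM in KO cells, against 237 ± 13.6 CPM in WT cells (edgeR adjusted p = 0.00538). The Tnfrsf22 call was lost without WT replicate 3 or KO replicate 4 (edgeR adjusted p = 0.0767 and 0.0799), and the Tnfrsf23 call with library totals (-0.03, edgeR adjusted p = 0.708). As their sequences are alike, reads could have been exchanged between them. Next to them lies Tnfrsf26, a further receptor gene, which fell more deeply (log2 fold change -2.62 ± 0.24, SE; edgeR adjusted p = 1.96e-07), with 28, 38 and 32 counts in KO and 269, 268 and 175 counts in WT libraries.

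Among the other signalling receptors 5 of 6 rose in KO keratinocytes and 1 fell, while 24.8% of all genes tested rose and 23.7% fell. Cd40, a receptor best known from antigen-presenting cells and also made by keratinocytes, had 176, 191 and 188 counts in KO and 14, 13 and 32 counts in WT libraries. It had the largest fold change of all members, 3.43 ± 0.34 log2 units (SE; edgeR adjusted p = 3.88e-07), and WT library 3 stood above the other WT libraries. Without WT replicate 3 the value was 4.05, and without WT replicate 2 it was 3.17. Tnfrsf1b, the TNF receptor without a death domain, had 3.97, 4.34 and 4.02 CPM in KO and 0.753, 0.929 and 0.692 CPM in WT libraries. All KO libraries were over 4 times as high as any WT library. Its log2 fold change was 2.37 ± 0.18 (SE; edgeR adjusted p = 2.02e-08), which ran opposite to that of Tnfrsf1a. Its promoter (chr4:145246821-145247120, minus strand) is shown as that of the receptor with the smallest p among those that rose, and it holds 3 overlapping matches to the NF-kB pattern and, closest to the start, 1 to the interferon-response pattern.
Tnfrsf1b: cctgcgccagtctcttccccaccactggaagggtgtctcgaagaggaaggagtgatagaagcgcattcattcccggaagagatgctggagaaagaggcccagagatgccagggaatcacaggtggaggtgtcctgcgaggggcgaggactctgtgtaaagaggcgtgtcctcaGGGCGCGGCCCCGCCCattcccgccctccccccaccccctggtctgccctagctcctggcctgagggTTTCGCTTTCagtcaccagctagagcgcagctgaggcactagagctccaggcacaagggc

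Tnfrsf9, which encodes 4-1BB, had 40, 48 and 45 counts in KO and 20, 31 and 15 counts in WT libraries. It rose by 1.25 ± 0.40 log2 units (SE; edgeR adjusted p = 0.0173), a call that was lost without WT replicate 3 or KO replicate 6 (edgeR adjusted p = 0.0586 and 0.0573). Eda2r encodes the receptor of ectodysplasin A2 and lies on the X chromosome. It had 89.2, 87.6 and 87.9 CPM in KO and 57.3, 57.0 and 58.7 CPM in WT libraries, with the smallest coefficient of variation of the 30 members at 1 CPM or more in both groups. Its log2 fold change was 0.61 ± 0.06 (SE; edgeR adjusted p = 3.03e-07). Xist, the RNA of the inactive X chromosome, was also higher in KO libraries, at 587 ± 18.3 CPM against 402 ± 14.0 CPM in WT libraries (SD, n = 3 each), and its part in the Eda2r value was not tested. Tnfrsf12a, the TWEAK receptor, had the highest CPM of the receptors and rose to 327 ± 13.2 CPM in KO cells, against 285 ± 16.8 CPM in WT cells (log2 fold change 0.20, edgeR adjusted p = 0.0117). That call was lost without WT replicate 2 or KO replicate 5 (edgeR adjusted p = 0.0725 and 0.0534). Ltbr, the receptor of lymphotoxin beta, fell to 30.0 ± 0.986 CPM in KO cells, against 34.7 ± 0.567 CPM in WT cells (edgeR adjusted p = 0.0233), and was not called with library totals (-0.01, edgeR adjusted p = 0.912) or without any one of WT replicate 2 and KO replicates 4 and 6.

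Levels of the 14 receptors were compared per kilobase of exon, with lengths from GENCODE M21, an older annotation than the one behind the counts. Tnfrsf12a led in both groups, at 169 CPM per kb in KO and 148 CPM per kb in WT cells, and made up 47.9% of the summed receptor level in KO and 44.4% in WT cells. Tnfrsf23, Tnfrsf10b and Tnfrsf1a followed in KO cells and Tnfrsf23, Tnfrsf1a and Tnfrsf10b in WT cells. The ranges of Tnfrsf23 and Tnfrsf10b overlapped in KO libraries (48.4 to 53.4 and 47.1 to 51.7 CPM per kb), so their order there lies within the spread between libraries. Ltbr stood above Eda2r in WT cells and below it in KO cells, without overlap in either group. Tnfrsf21 took place 11 in KO cells and 8 in WT cells, and Tnfrsf1b place 9 in KO cells and 11 in WT cells. At the low end of the WT order the ranges of Tnfrsf1b, Tnfrsf25, Tnfrsf9 and Cd40 overlapped from each gene to the next.

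**Figure D2:**
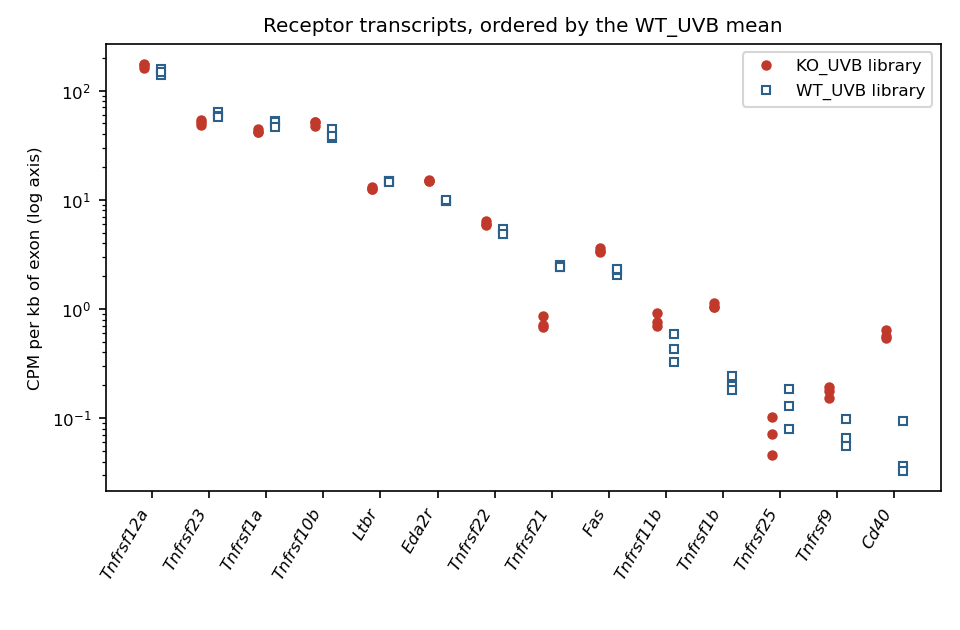
CPM per kilobase of exon, on a log axis, for the 14 receptors in each KO library (filled circles, left of each pair) and WT library (open squares, right), ordered by the WT mean. Tnfrsf12a is highest in both groups at 169 and 148 CPM per kb in KO and WT cells, and Cd40, last in the WT order, holds place 12 in KO cells.

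In the death complex itself Casp8 and Cflar rose in KO keratinocytes, while Tradd and Fadd were not called. Over all genes tested, 24.8% rose and 23.7% fell. Casp8, which encodes the initiator caspase, had 64.5, 58.1 and 68.8 CPM in KO and 28.5, 30.3 and 31.2 CPM in WT libraries. The lowest KO library was well above the highest WT library, and the log2 fold change was 1.09 ± 0.08 (SE; edgeR adjusted p = 8.1e-09). Cflar, whose product resembles caspase-8 but lacks its activity, had 97.2, 91.1 and 103 CPM in KO and 78.3, 73.5 and 78.7 CPM in WT libraries. These groups did not overlap either, with a smaller log2 fold change of 0.34 ± 0.06 (SE; edgeR adjusted p = 3.85e-04). Tradd averaged 49.9 ± 2.88 CPM in KO and 50.0 ± 2.12 CPM in WT libraries (edgeR adjusted p = 0.978), and Fadd 8.99 ± 0.296 CPM in KO and 8.65 ± 0.647 CPM in WT libraries (edgeR adjusted p = 0.712). With library totals Tradd was called higher (0.20, edgeR adjusted p = 0.0402).

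Casp8 and Cflar are neighbours in the genome, and their promoters are shown side by side because both rose and by unequal amounts. The Casp8 promoter (chr1:58802252-58802551, plus strand) held none of the 3 patterns. The Cflar promoter (chr1:58711241-58711540, plus strand) held all 3, with the C/EBP pattern TTGCTAAA 60 bases before the start and the interferon-response and NF-kB patterns after it.
Casp8: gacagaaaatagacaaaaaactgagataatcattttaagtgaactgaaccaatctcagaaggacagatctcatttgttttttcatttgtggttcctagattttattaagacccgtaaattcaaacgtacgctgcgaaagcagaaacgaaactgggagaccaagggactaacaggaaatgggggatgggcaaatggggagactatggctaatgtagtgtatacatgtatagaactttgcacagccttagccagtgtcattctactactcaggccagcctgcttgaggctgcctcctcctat
Cflar: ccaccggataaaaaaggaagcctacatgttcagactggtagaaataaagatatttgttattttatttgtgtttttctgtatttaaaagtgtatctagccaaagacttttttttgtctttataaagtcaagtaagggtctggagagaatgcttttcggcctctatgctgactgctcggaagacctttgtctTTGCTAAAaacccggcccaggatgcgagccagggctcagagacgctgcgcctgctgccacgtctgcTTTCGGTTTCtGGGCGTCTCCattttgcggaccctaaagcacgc

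The balance between paired members was followed as the ratio of their counts within a library, which does not depend on how libraries are scaled. The Casp8 to Cflar ratio was 0.664, 0.638 and 0.667 in KO and 0.364, 0.413 and 0.396 in WT libraries, a difference of 0.75 in mean log2 ratio, KO minus WT. The Tnfrsf1b to Tnfrsf1a ratio was 0.0367, 0.0377 and 0.0372 in KO and 0.00551, 0.00695 and 0.00572 in WT libraries, a difference of 2.63. Per kilobase of exon, Tnfrsf1b stood at 1.08 CPM per kb and Tnfrsf1a at 42.6 CPM per kb in KO cells, against 0.207 and 50.3 CPM per kb in WT cells. The Birc3 to Birc2 ratio was 0.624, 0.656 and 0.689 in KO and 0.261, 0.296 and 0.297 in WT libraries, and the Tnf to Tnfaip3 ratio was 0.707, 0.691 and 0.769 in KO and 0.191, 0.215 and 0.235 in WT libraries. None of the 4 ratios overlapped between groups, while 56.4% of all single genes did not overlap either. The share over other pairs of genes was not measured, and each difference largely restates the fold changes of its paired genes. Each had p = 0.1 in a two-sided exact permutation test, and 0.1 after adjustment over the 4, which is the smallest p that 3 against 3 libraries allow.

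**Figure D3:**
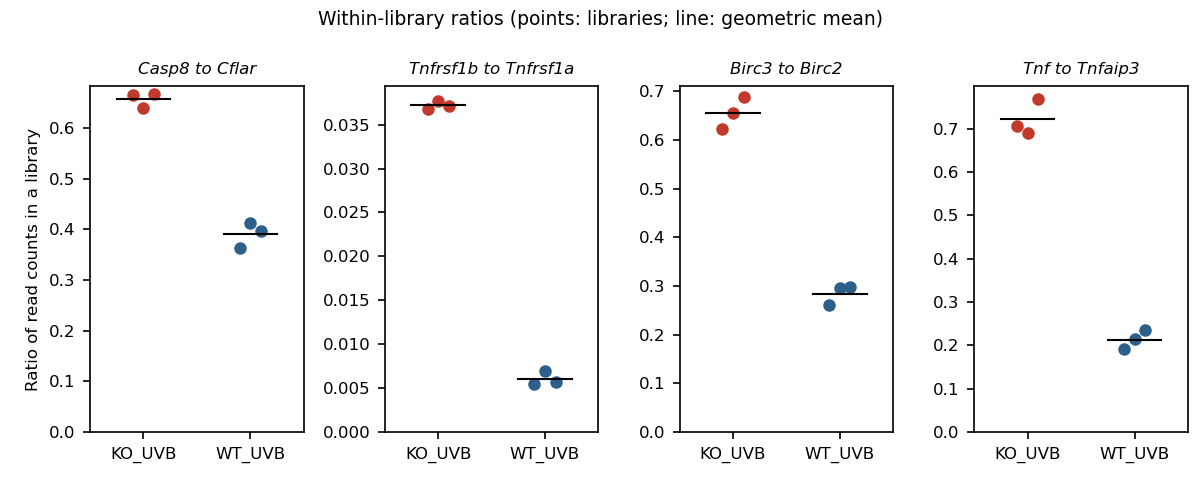
Ratio of the read counts of paired members in each library, with KO libraries left and WT libraries right of each panel and the geometric mean as a line. All 4 ratios are higher in KO libraries without overlap, for example 0.638 to 0.667 against 0.364 to 0.413 for Casp8 to Cflar.

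Of the TRAF and cIAP adaptors 5 of 6 rose and Traf6 fell, while 24.8% of all genes tested rose and 23.7% fell. The 5 include Traf1, whose call was lost in most alternatives. Birc3, which encodes the ubiquitin ligase cIAP2, is a classical NF-kB target and had 19.0, 19.2 and 20.3 CPM in KO and 6.13, 6.50 and 7.22 CPM in WT libraries. The groups were clearly separate, with a log2 fold change of 1.56 ± 0.10 (SE; edgeR adjusted p = 3.79e-09). Its neighbour Birc2, which encodes cIAP1, rose less, to 29.7 ± 0.626 CPM in KO cells, against 23.3 ± 1.19 CPM in WT cells (log2 fold change 0.35, edgeR adjusted p = 0.00142). The Birc3 promoter (chr9:7873121-7873420, minus strand) is shown as that of the adaptor with the smallest p. It holds the NF-kB pattern at 1 place, 57 bases before the start, and neither of the Birc2 promoters holds any of the patterns. The NF-kB pattern stood in 53.5% of all genes with a promoter, and its part in these rises was not tested.
Birc3: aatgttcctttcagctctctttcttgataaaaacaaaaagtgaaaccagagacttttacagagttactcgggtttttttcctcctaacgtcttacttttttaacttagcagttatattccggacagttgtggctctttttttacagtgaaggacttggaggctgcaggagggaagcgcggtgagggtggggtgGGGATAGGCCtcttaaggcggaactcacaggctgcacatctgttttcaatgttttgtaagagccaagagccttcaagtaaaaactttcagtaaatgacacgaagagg

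Traf3, an adaptor that holds back the alternative NF-kB pathway, had 34.7, 28.6 and 29.4 CPM in KO and 12.5, 17.0 and 15.3 CPM in WT libraries. It rose by 1.05 ± 0.11 log2 units (SE; edgeR adjusted p = 1.08e-06). Traf2, the adaptor that brings the cIAPs to TNF receptors, rose to 35.9 ± 0.823 CPM in KO cells, against 23.2 ± 1.42 CPM in WT cells (log2 fold change 0.63, edgeR adjusted p = 5.16e-06). Traf6, which serves CD40 and the receptors of the IL-1 and Toll-like families, ran the other way, at 70.0, 70.0 and 75.2 CPM in KO and 102, 90.0 and 96.5 CPM in WT libraries. It fell by 0.42 log2 units (± 0.07, SE; edgeR adjusted p = 5.23e-05) and was also called with library totals. Traf1 was barely detected, at 12, 16 and 15 counts in KO and 5, 0 and 7 counts in WT libraries. Its call (edgeR adjusted p = 0.0498) was lost in 10 of the 12 alternatives in which it was tested, and it passed the filter through the KO libraries alone.

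Of the 3 necroptosis genes Mlkl rose and the kinase genes Ripk1 and Ripk3 were not called, a share near the 24.8% of all genes tested that rose. Mlkl, which encodes the pseudokinase that breaks the plasma membrane, had 8.64, 6.70 and 8.90 CPM in KO and 4.32, 4.16 and 5.48 CPM in WT libraries. The groups did not overlap (log2 fold change 0.80 ± 0.15, SE; edgeR adjusted p = 3.01e-04). Ripk1, the kinase and scaffold of TNF receptor signalling, averaged 66.0 ± 3.19 CPM in KO and 60.5 ± 6.92 CPM in WT libraries (edgeR adjusted p = 0.212). WT library 2 was its highest WT library, and without it the gene was called higher (0.21, edgeR adjusted p = 0.0286). Ripk3, the kinase that activates MLKL, averaged 50.6 ± 3.33 CPM in KO and 48.5 ± 0.846 CPM in WT libraries (edgeR adjusted p = 0.489). With library totals both kinase genes were called higher (0.32 and 0.26, edgeR adjusted p = 0.00521 and 0.00585).

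All 3 ubiquitin brakes rose in KO keratinocytes, while 24.8% of all genes tested did. Cyld, which encodes a deubiquitinase of linear and K63-linked chains, had 36.6, 31.8 and 37.1 CPM in KO and 13.3, 15.2 and 15.7 CPM in WT libraries (log2 fold change 1.25 ± 0.09, SE; edgeR adjusted p = 1.6e-08). Tnfaip3, which encodes A20, had 38.8, 44.4 and 44.8 CPM in KO and 24.3, 16.9 and 18.3 CPM in WT libraries. It rose by 1.11 ± 0.11 log2 units (SE; edgeR adjusted p = 9.63e-07), with WT library 1 above the other two WT libraries. Tnip1, which encodes a partner of A20 that binds ubiquitin, rose to 101 ± 8.33 CPM in KO cells, against 62.1 ± 2.22 CPM in WT cells (log2 fold change 0.70, edgeR adjusted p = 4.42e-07).

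**Figure D4:**
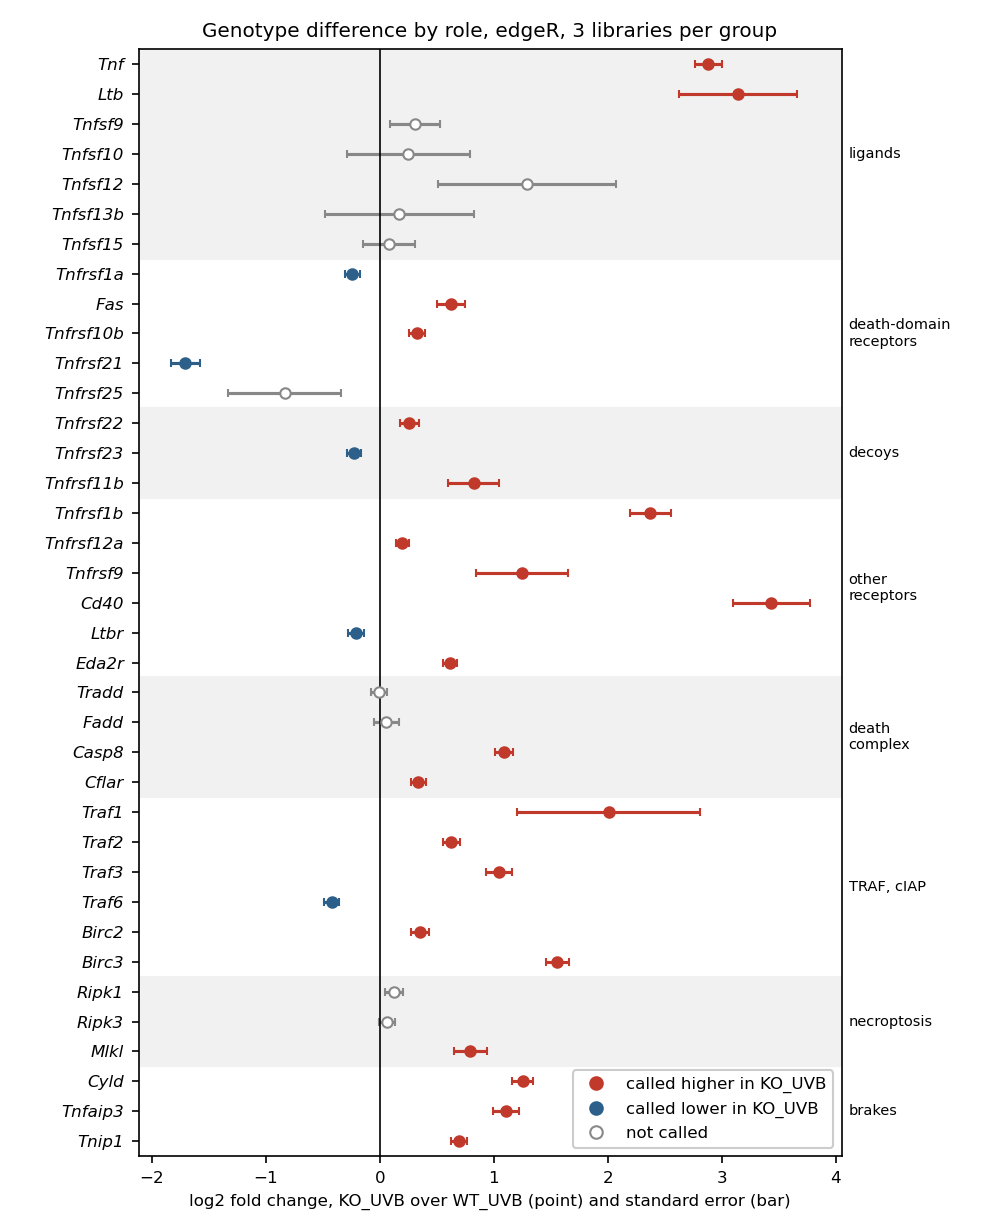
Log2 fold change of KO over WT with its standard error for the 37 tested members, grouped by role and coloured by the edgeR call at an adjusted p under 0.05. Values run from -1.71 for Tnfrsf21 to 3.43 for Cd40, and the 3 brakes lie between 0.70 and 1.25.

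Other genes of the pathway were counted by lists, which were chosen with earlier results of these data known. A list of 21 textbook TNF-induced genes had 20 tested, of which 16 rose (24.8% of all genes did), 1 fell and 3 were uncalled, and its median was 1.16 log2 units. The growth factor gene Csf1 (4.10 ± 0.08) and the cytokine gene Csf2 (4.10 ± 0.37) led them. Csf2 had 639, 617 and 702 counts in KO and 14, 72 and 48 counts in WT libraries. It was under 1 CPM in every WT library and reached the mean of 1 CPM required for naming through the KO libraries. Sod2, the mitochondrial superoxide dismutase, fell by 0.31 (edgeR adjusted p = 8.32e-04) and was not called with library totals. Il6 had at most 3 counts in any library. Of 11 genes of death execution and necroptosis control, 5 rose, 2 fell and 4 were not called (median 0.11), while 24.8% of all genes rose and 23.7% fell. Bid, whose product links caspase-8 to mitochondria, rose to 65.2 ± 4.44 CPM in KO cells, against 25.1 ± 3.26 CPM in WT cells (edgeR adjusted p = 3.74e-09). Diablo, whose product Smac antagonises IAP proteins, fell by 0.57 and the ubiquitin ligase gene Peli1 by 0.54.

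The 23 genes of the signalling complex downstream of the receptors were near the background of 24.8% and 23.7%, with 5 higher, 7 lower and 11 not called. Map3k14, which encodes the kinase NIK of the alternative NF-kB pathway, rose by 1.79 ± 0.16 and the kinase gene Ikbke by 1.32 ± 0.08 log2 units. Otulin, a deubiquitinase of linear chains, fell by 0.33 and the adaptor gene Tab2 by 0.32. With library totals, where 36.7% of all genes were higher and 13.9% lower, these 23 genes gave 11 higher and 0 lower, and neither Otulin nor Tab2 was called. Without WT replicate 3 Otulin was also not called (-0.25, edgeR adjusted p = 0.069). Of 14 other receptors of the superfamily 8 were tested, with 1 higher, 3 lower and 4 not called. The shares over all genes with TMM were 24.8% higher and 23.7% lower. Relt, an orphan receptor, rose by 1.64 ± 0.17, and Tnfrsf4, which encodes OX40, fell by 0.71 ± 0.19 (edgeR adjusted p = 6.65e-07 and 0.00505). Of 10 other ligands only Eda passed the filter, and it was not called (edgeR adjusted p = 0.544).

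Several members are best known from immune cells, so leukocyte markers are given beside them. Ptprc, the common leukocyte marker, had 0 counts in every KO library and 1, 0 and 5 counts in the WT libraries, and 5 such markers summed to between 0.222 and 0.410 CPM in KO and between 0.482 and 1.02 CPM in WT libraries. Of 8 markers of macrophages and Langerhans cells 3 were lower and 1 higher in KO cells, while 23.7% of all genes tested were lower and 24.8% higher. These markers had sums of 28.5 to 32.0 CPM in KO and 49.3 to 60.2 CPM in WT libraries, most of it from Cd68. The Langerhans marker Cd207 had at most 1 count. The 6 T cell markers summed to between 2.03 and 2.37 CPM in KO and between 1.49 and 3.17 CPM in WT libraries, and moved in both directions. Cd3e and Cd3d, which mark T cells, were at 0 in all 6 libraries, and Cd3g had at most 1 count. The T cell receptor genes Trac and Trdc were higher in KO libraries without overlap, at 39 to 61 and 32 to 50 counts in KO and at 0 to 6 and 1 to 8 counts in WT libraries. Thy1 had 107, 114 and 115 counts in KO and 353, 170 and 141 counts in WT libraries and was called lower (edgeR adjusted p = 0.0365), but not without WT replicate 1 (edgeR adjusted p = 0.391). Their part in the values of the members was not tested. In bulk RNA, more cells that express a gene and more RNA per cell cannot be told apart.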

How the data were processed

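The authors deposited 1 table of raw read counts per gene for 6 libraries, with Ensembl identifiers and nothing normalised. FastQC, STAR, HTSeq and DESeq2 with the builds mm39 and GRCm39 are named in the submitters' processing notes, with versions, annotation release and strand setting not given in the sources used here. Without a stated strand setting, antisense genes cannot be told apart, which touches Tnfsf9, Tnfrsf23, Fadd and Ripk1, with 2.89% to 14.9% of their exon length overlapped.

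Symbols were matched by identifier. Genes were filtered with filterByExpr (minimum 10 counts), scaled by TMM and tested with edgeR 4.0.16 (R 4.3.3, quasi-likelihood, robust), KO against WT, with Benjamini-Hochberg adjustment over 17659 genes and a threshold of 0.05. The standard error (SE) was taken as the size of the log2 fold change over the root of the F statistic. CPM are TMM-scaled. The code was tested on simulated data. Alternatives were DESeq2 size factors, library totals, other filters, the DESeq2 1.42.0 and limma 3.58.1 voom tests, leaving out the X and Y chromosomes and leaving out each library. No pair of libraries agreed within sampling noise (chi-square per degree of freedom at least 19.8). The members, roles and lists were chosen with earlier results of these data known. Of each list of other pathway genes, the named ones are the 2 largest called rises and 2 largest called falls at a mean of at least 1 CPM, of which 1 is not reported here. Lta, Fasl, Il6 and Eda were named besides for their link to a member or their low counts, after their values were seen. No column was left unused.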

Additional observations from a re-analysis of the deposited data

How the results depend on the processing

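Of the 27 called members, 20 kept their call in every one of the 13 alternatives in which they were tested, and the other 7 were Tnfrsf1a, Tnfrsf12a, Tnfrsf22, Tnfrsf23, Tnfrsf9, Ltbr and Traf1. Those 20 include Ltb, which passed the filter on low counts through the KO libraries alone. The choice with the widest effect was scaling by library totals, where 2452 genes were called lower (4192 with TMM) and 2 members were called lower (5 with TMM), since the median of all genes moves up by 0.20. The share of higher calls over all genes is then 72.5%, against 51.1% with TMM. Without 1 library at a time the members called higher numbered 19 to 21 and those called lower 4 to 5, the genes called higher 3781 to 4251 and lower 3719 to 4071. The log2 ratio differences ranged over 0.70 to 0.79 (Casp8 to Cflar), 2.56 to 2.73 (Tnfrsf1b to Tnfrsf1a), 1.14 to 1.24 (Birc3 to Birc2) and 1.68 to 1.83 (Tnf to Tnfaip3). Sign changes touched 4 members, all uncalled with TMM. Tradd turned to 0.20 with library totals and 0.015 at a mean of 1 CPM or more. Without 1 library at a time Tradd ranged over -0.039 to 0.044, Fadd over -0.0071 to 0.086, Tnfsf13b over -0.21 to 0.46 and Tnfsf15 over -0.055 to 0.23. Their cause was not tested. No paired analysis was possible because the groups share no replicate numbers. Members under 1 CPM (Ltb, Traf1, Tnfrsf9, Tnfrsf25 and 3 ligands) rest on few counts, which limits the precision of their values.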

Other observations

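The constant-region genes of T cell receptor chains were detected without the CD3 chains. Trac had 61, 55 and 39 counts in KO and 0, 0 and 6 counts in WT libraries, and Trdc had 39, 32 and 50 counts in KO and 1, 8 and 1 counts in WT libraries. The groups did not overlap, but no WT library reached 10 counts, so both passed the filter on low counts through the KO libraries alone. Cd3e and Cd3d had 0 counts in all 6 libraries and Cd3g at most 1.

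The macrophage gene Lyz2 had 1, 12 and 0 counts in KO and 163, 86 and 120 counts in WT libraries. Replicates of the members with a mean of at least 1 CPM were close in both groups, with a median coefficient of variation of 5.36% over 30 members in KO and 6.69% in WT libraries. The highest was that of Tnfsf9 in KO libraries (24.3%) and of Cd40 in WT libraries (62.8%).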
